A study of Mus musculus with 16 samples.

Results

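The genes described here are 34 cell cycle and mitosis genes, taken by symbol from 55487 genes counted in each library. They fall into 7 genes of DNA replication and nucleotide supply, 4 cyclin and cyclin-dependent kinase genes, 7 mitotic kinases, passenger and checkpoint proteins, 3 factors of protein destruction, 4 chromosome and kinetochore proteins, 6 spindle proteins and 3 cytokinesis proteins. Total RNA was sequenced from the middle part of the perfused left ventricle of untreated C57Bl/6J mice aged 24 months. The 8 multiparous mice had more than 3 past pregnancies and the 8 virgin mice had none. Library names carry a code, P in 4 and MP in the other 4 multiparous libraries and AA in all virgin ones, and the labels do not explain it. A difference between the groups therefore cannot be told apart from one tied to the codes. The comparison asks how past pregnancies bear on the heart's transcripts in old age.

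As background, a cell commits to division by activating E2F factors, which switch on the enzymes of DNA synthesis. The kinase Cdk1, bound to cyclins A and B, then drives mitosis, and the anaphase-promoting complex ends it by marking the cyclins for destruction. Late cell cycle genes are repressed in resting cells by the DREAM complex, which binds a promoter element called the cell cycle homology region (CHR), and are activated through CCAAT boxes bound by NF-Y. Adult cardiomyocytes rarely divide, so that transcripts of mitosis in heart tissue are scarce and are usually attributed to endothelial, stromal and blood cells.

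Reads assigned to genes numbered between 34560606 and 58890976 per library, apart from virgin 8 with 228325238. Levels are CPM, counts as a share of the library's scaled total. Markers of cardiomyocytes summed to between 71568 CPM in virgin 1 and 102042 CPM in virgin 2, so every library was rich in heart muscle. All 34 genes had counts in every library and passed the filter on low counts. Their weakest signal was 2 counts, for Birc5 in multiparous 4 (0.0535 CPM). The floor that a count of 0 would allow, 3 counts, lay between 0.0131 and 0.0868 CPM by library. In multiparous 4 it was 0.0805 CPM, so this value of Birc5 lay below the floor.

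Levels of the mitotic genes were higher in a few hearts than in the rest, and those hearts were of both groups. Virgin 1 had the highest level of the 16 libraries for 33 of the 34 genes. Among genes with a mean of at least 1 CPM these were 23 of 24 members, against 16.1% of 13857 genes. All 34 genes lay above their 16-library median in virgin 1. The same median was exceeded by 34 genes in multiparous 1, by 33 each in virgin 3 and virgin 4, and by 29 in multiparous 6. At the other end, 0 genes exceeded it in virgin 5 and multiparous 4, 1 in virgin 6, 3 in virgin 7 and 4 in multiparous 5. Virgin hearts were thus both the highest and the lowest. In bulk tissue, more dividing cells and more of these transcripts per cell cannot be told apart.

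**Figure D1:**
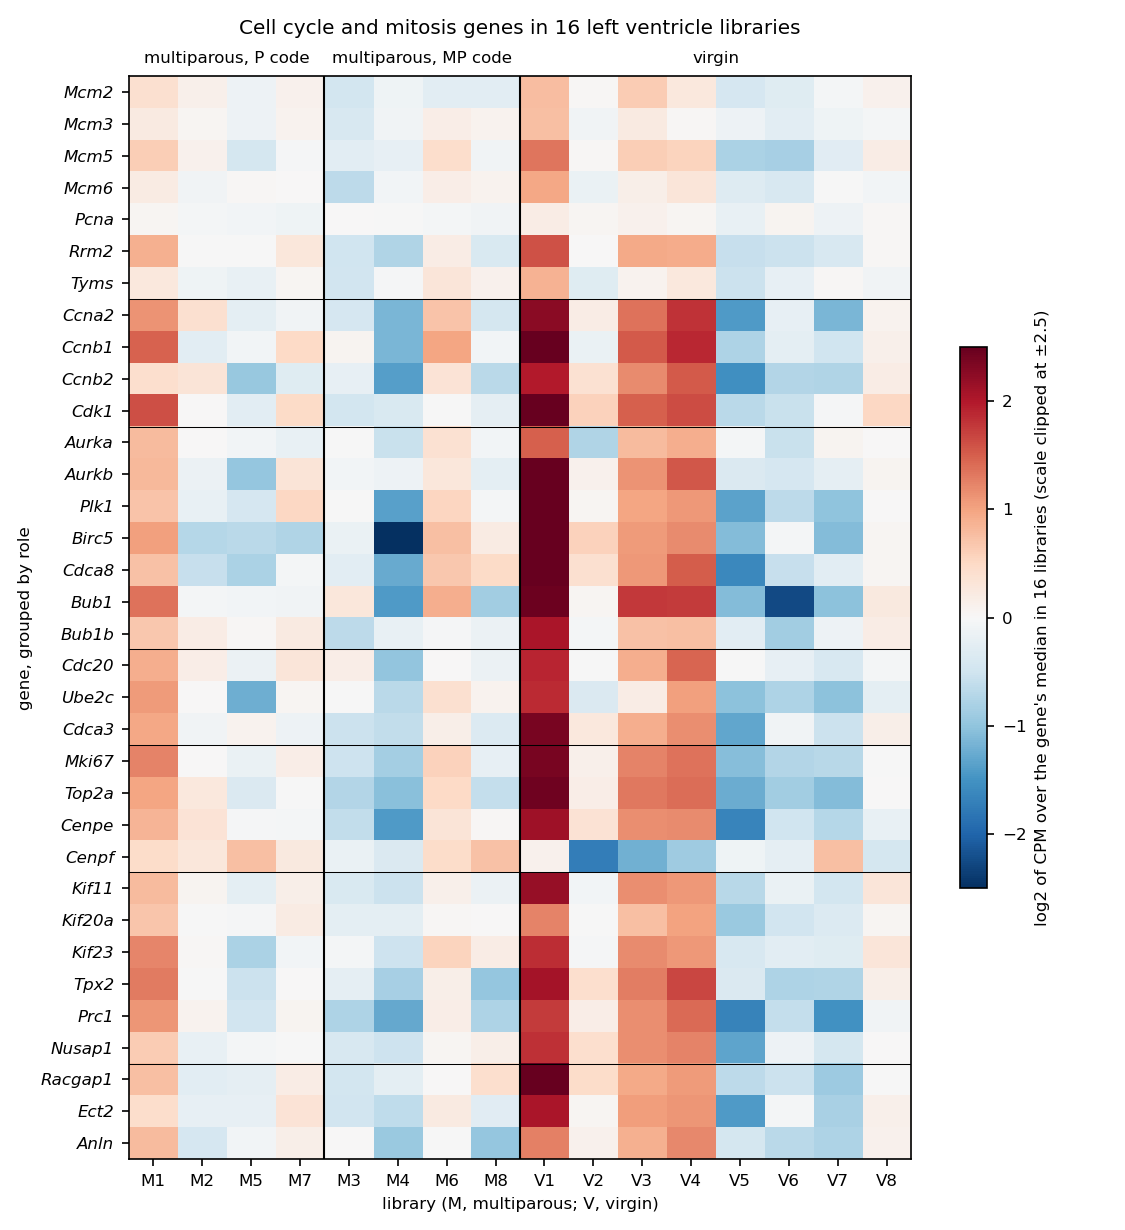
Each cell shows the log2 ratio of a gene's CPM to its own median over 16 libraries, with genes in rows by role and libraries in columns by group and code, and colours clipped at 2.5 in either direction. Virgin 1, virgin 3, virgin 4 and multiparous 1 are red in almost all rows, while Cenpf departs from the other rows.

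No member passed the test between the groups. In the edgeR quasi-likelihood fit over 17813 genes, 2 genes in all passed an adjusted p of 0.05, or 0.0112% of those tested, and 0 of the 34 were among them (edgeR adjusted p 0.542 to 0.962). DESeq2 and limma voom also called 0 members. At an unadjusted p under 0.05 stood 1 lower gene, Aurkb, and 1 higher gene, Cenpf, against 4.09% lower and 4.04% higher of all genes tested. The log2 fold change, multiparous minus virgin, was negative for 33 of the 34 and for 51.4% of all genes, with a median of −0.60 for the members and −0.0030 for all genes. The members' median was −0.24 in limma voom and −0.36 with a replicate block. Without virgin 1 the median of the members was −0.17, 28 were negative against 48.4% of 17901 genes, and 0 passed, where 0.128% of all genes did (DESeq2 and limma voom called 0). Unadjusted, 0 of 34 were lower and 1 higher (Cenpf), against 5.94% and 6.13% of all genes. Virgin 1 was the highest library for 33 of the 34 genes, so leaving it out was bound to raise their fold changes. Their rise without virgin 1, here and below, is therefore no separate result. These genes varied together from heart to heart, so that the number on 1 side of 0 does not count independent observations.

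RefSeq promoter windows of 300 bases (250 before and 50 from the transcript start, build GRCm38.p6) were available for 30 of the 34 genes, as 32 windows. They are shown because the genes varied together between hearts and the motifs are those of cell cycle control. Both strands were searched for the CHR (TTTGAA or TTCGAA), the CCAAT box (CCAAT) and E2F sites, read as TTCCCGC or as TTGGCGC or as TTCGCGC or as TTGCCGC. Matches of different kinds may overlap. Capitals mark every match on either strand in the following windows, each written 5′ to 3′ along the gene.
Plk1 (chr7:122159185-122159484, plus strand) and Ccnb2 (chr9:70421505-70421804, minus strand) stand for the late mitotic genes.
Plk1: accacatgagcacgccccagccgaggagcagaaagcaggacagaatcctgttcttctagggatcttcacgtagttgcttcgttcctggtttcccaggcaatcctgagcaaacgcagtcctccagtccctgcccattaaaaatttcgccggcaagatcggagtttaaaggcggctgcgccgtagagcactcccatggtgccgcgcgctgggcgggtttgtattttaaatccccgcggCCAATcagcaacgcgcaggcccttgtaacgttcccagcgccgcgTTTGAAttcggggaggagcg
Ccnb2: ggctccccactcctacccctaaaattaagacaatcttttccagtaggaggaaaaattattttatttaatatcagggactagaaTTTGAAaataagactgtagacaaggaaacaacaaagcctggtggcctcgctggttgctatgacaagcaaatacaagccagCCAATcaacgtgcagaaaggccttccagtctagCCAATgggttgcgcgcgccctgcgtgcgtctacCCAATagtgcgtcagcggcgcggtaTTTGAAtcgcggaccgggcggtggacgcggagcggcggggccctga
Mki67 (chr7:135716330-135716629, minus strand) holds all 3 kinds of match.
Mki67: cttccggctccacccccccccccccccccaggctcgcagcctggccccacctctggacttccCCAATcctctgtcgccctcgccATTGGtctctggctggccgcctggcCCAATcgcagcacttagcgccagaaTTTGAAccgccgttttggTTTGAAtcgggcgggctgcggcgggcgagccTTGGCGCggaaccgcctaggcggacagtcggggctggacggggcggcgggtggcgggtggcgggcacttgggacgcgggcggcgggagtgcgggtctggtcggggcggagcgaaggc
Cenpf (chr1:189688037-189688336, minus strand) is the gene whose level departed from the others.
Cenpf: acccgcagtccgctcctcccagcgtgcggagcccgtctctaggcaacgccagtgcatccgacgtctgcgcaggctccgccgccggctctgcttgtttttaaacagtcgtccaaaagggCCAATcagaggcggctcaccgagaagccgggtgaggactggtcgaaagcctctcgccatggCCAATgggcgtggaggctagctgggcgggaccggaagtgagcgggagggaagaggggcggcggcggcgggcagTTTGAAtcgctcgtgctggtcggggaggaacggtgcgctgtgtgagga
Mcm6 (chr1:128359656-128359955, minus strand) stands for the replication genes.
Mcm6: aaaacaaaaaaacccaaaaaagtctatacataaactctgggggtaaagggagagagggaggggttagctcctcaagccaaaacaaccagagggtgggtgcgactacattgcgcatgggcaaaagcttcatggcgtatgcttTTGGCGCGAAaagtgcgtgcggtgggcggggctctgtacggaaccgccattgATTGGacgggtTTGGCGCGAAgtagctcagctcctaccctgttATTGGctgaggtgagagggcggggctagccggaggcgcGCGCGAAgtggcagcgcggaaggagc

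The late genes and the replication genes held CHR and E2F matches in different shares and CCAAT boxes in near shares, which were not tested. A CHR match lay in 22 of the 32 member windows (68.8%), against 14.2% of 14995 windows of genes tested here and 19.2% of all 32851 windows in the table. A CCAAT box lay in 28 (87.5%), against 37.3% and 37.4%, and both together in 21 (65.6%), against 5.75% and 7.53%. E2F sites lay in 9 (28.1%), against 15.5% and 9.57%. Among the 25 windows of genes outside the replication group, 21 held a CHR and 5 an E2F site, while of the 7 replication windows 1 held a CHR and 4 an E2F site. A CCAAT box lay in 22 of the 25 (88.0%) and in 6 of the 7 (85.7%). In Ccnb2, CCAAT boxes begin at −87, −54 and −21 from the start and CHR matches at −167 and 5. In Plk1 the CCAAT box begins at −14 and the CHR at 31. Cenpf likewise has CCAAT boxes upstream, at −132 and −71, and a CHR at 3. Mcm6 has no CHR match, but E2F sites at −109, −106, −46, −43 and 25, of which neighbours overlap on opposite strands. A match is a run of letters and says nothing of binding in these hearts.

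**Figure D2:**
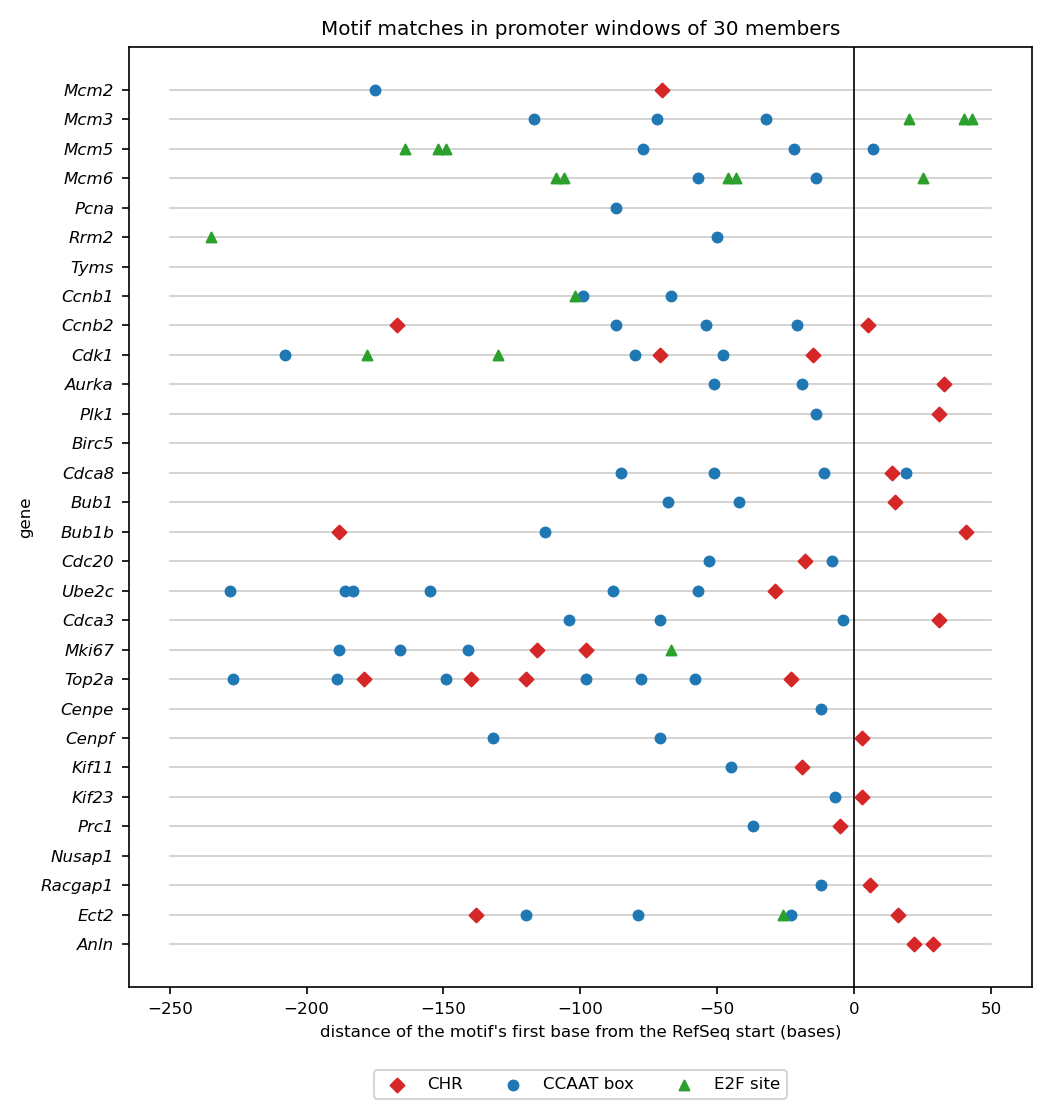
Each row is a promoter window of 1 gene (30 genes, the first window where a gene has 2), and each symbol marks the first base of a CHR, CCAAT box or E2F match by its distance from the RefSeq start in bases. CHR matches lie mostly close to the start in mitotic genes, and Mcm3, Mcm5 and Mcm6 each hold several E2F matches.

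The 20 genes with a CHR and the 10 without were both higher in virgin 1. Its level over the mean of the other 7 virgin libraries had a median of 3.65 in genes with a CHR (range 1.38 to 5.61) and of 2.56 in genes without (range 1.13 to 5.27). The ranges overlap almost wholly, and the difference was not tested. Of the genes without a CHR, Mcm3, Mcm5, Mcm6, Pcna, Rrm2 and Tyms belong to the replication group, with ratios of 1.13 to 2.64. The others were Ccnb1 at 5.27, Birc5 at 4.74, Cenpe at 3.68 and Nusap1 at 2.76. Mcm2, the only replication gene with a CHR, stood at 1.62. The presence of a CHR and the role of the gene thus go together for most genes, though not for all. Their separate parts in this ratio were not tested.

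Genes of DNA replication held 4 of the 5 highest levels. By the median of the group, though not gene by gene, they varied less between virgin hearts than the mitotic genes. Per kilobase of exon, over the 15 libraries other than virgin 1, Pcna stood first at 9.34 CPM per kb. Cenpf followed at 2.95, Mcm6 at 1.66, Mcm3 at 1.61 and Mcm2 at 1.194 CPM per kb, while Mki67 reached 0.868 and Cdca8, the lowest, 0.0994 CPM per kb. Pcna, the sliding clamp of DNA polymerases and also a DNA repair factor, measured 21.0 CPM at the lowest, 21.9 at the median and 23.6 CPM at the highest in multiparous hearts, and 20.02, 23.6 and 25.7 CPM in virgin hearts. The ranges overlap. All 8 multiparous values lay below the virgin median, the highest of them only just (23.58 against 23.60 CPM). The share of all genes with such an order was not computed. The log2 fold change of Pcna was −0.07 (95% interval −0.17 to 0.03, edgeR adjusted p = 0.782).

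Mcm2, Mcm3, Mcm5 and Mcm6 encode subunits of the replicative helicase. Mcm2 ranged from 5.99 to 10.9 CPM (median 7.60) in multiparous hearts and from 6.16 to 14.1 CPM (median 8.66) in virgin hearts (log2 fold change −0.23, SE 0.16). The multiparous mean of Mcm6 was 7.83 ± 1.29 CPM and the virgin mean 8.605 ± 3.03 CPM, or 7.63 ± 1.33 CPM without virgin 1 (SD, n = 8, 8 and 7). Virgin 1, at 15.5 CPM, lay far above every other library, of which the highest held 9.78 CPM. Mcm3, Mcm5 and Mcm6 went from a slightly negative to a slightly positive fold change without virgin 1, at 0.06, 0.03 and 0.04 on the log2 scale.

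Of the nucleotide supply genes, Rrm2 had a negative log2 fold change with and without virgin 1 (−0.40 and −0.12) and Tyms did not. Rrm2, the regulated subunit of ribonucleotide reductase, ranged from 1.36 to 4.25 CPM (median 2.29) in multiparous and from 1.55 to 6.89 CPM (median 2.32) in virgin hearts. Tyms, thymidylate synthase, ranged from 1.57 to 2.72 CPM and from 1.503 to 3.99 CPM. Its log2 fold change of −0.07 became 0.09 without virgin 1. Over the 7 replication genes, virgin 1 stood 1.13 to 2.64 times above the mean of the other virgin libraries, with a median of 1.93.

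In the 26 mitotic genes other than Cenpf this ratio was larger, from 2.04 for Anln to 5.61 for Plk1, with a median of 3.69. These genes are scarce here, with means over the other 15 libraries of 0.456 to 8.73 CPM. The standard deviation over the virgin libraries had a median of 0.850 times the mean in these genes, against 0.331 times in the replication genes.

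Cyclins and Cdk1 showed the pattern plainly. Cdk1, the kinase that starts mitosis, measured 0.479 CPM at the lowest, 0.608 at the median and 2.02 CPM at the highest in multiparous hearts, and 0.412, 0.967 and 4.03 CPM in virgin hearts. The highest multiparous value was that of multiparous 1 and the highest virgin value that of virgin 1. The log2 fold change of Cdk1 was −0.81 (95% interval −1.74 to 0.11, edgeR adjusted p = 0.677), and −0.37 (−1.16 to 0.42) without virgin 1. Ccnb1, the main mitotic cyclin, ranged from 0.187 to 1.16 CPM in multiparous and from 0.242 to 3.34 CPM in virgin hearts, and the medians were 0.415 and 0.411 CPM. Its log2 fold change of −0.81 became −0.18 without virgin 1. Ccnb2, a second B-type cyclin, had medians of 0.5263 and 0.764 CPM. Its log2 fold change was −0.87 with all libraries and −0.54 (95% interval −1.35 to 0.28) without virgin 1, the most negative of the members in that fit. Ccna2, the cyclin of S phase and early mitosis, ranged from 0.642 to 3.07 CPM and from 0.533 to 6.74 CPM.

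Among the mitotic kinases, Aurkb had the most negative fold change of the 34 genes. Aurkb is the catalytic subunit of the chromosomal passenger complex, which corrects faulty spindle attachments. It measured 0.223 CPM at the lowest, 0.408 at the median and 0.759 CPM at the highest in multiparous hearts, and 0.326, 0.463 and 2.69 CPM in virgin hearts. Virgin 1, virgin 4 (1.28 CPM) and virgin 3 (0.945 CPM) lay above every multiparous library, and the other 5 virgin libraries lay within the multiparous range. The log2 fold change was −0.90 (SE 0.42, edgeR adjusted p = 0.607) with all libraries and −0.37 (SE 0.32, edgeR adjusted p = 0.692) without virgin 1. Its partners Birc5 (survivin) and Cdca8 (borealin) had log2 fold changes of −0.90 and −0.86, and of −0.33 and −0.35 without virgin 1. Plk1, a kinase of mitotic entry and spindle assembly, differed most between virgin 1 and the rest. Its virgin range was 0.218 to 3.38 CPM and its multiparous range 0.214 to 0.898 CPM, which gives a log2 fold change of −0.68, or −0.02 without virgin 1. Aurka, the centrosomal Aurora kinase, had a log2 fold change of −0.32.

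The spindle checkpoint genes Bub1 and Bub1b delay anaphase until chromosomes are attached. Bub1b ranged from 0.850 to 2.12 CPM (median 1.33) in multiparous and from 0.727 to 5.45 CPM (median 1.40) in virgin hearts, with virgin 1 at 2.43 times the next highest library. Bub1 ranged from 0.134 to 0.915 CPM and from 0.0752 to 1.96 CPM. Its lowest virgin value, in virgin 6, rests on 3 counts and so lies at the floor. Of the factors that end mitosis, Cdc20, an activator of the anaphase-promoting complex, had a multiparous median of 0.951 CPM and a virgin median of 0.893 CPM. Ube2c, its ubiquitin-conjugating enzyme, had medians of 0.651 and 0.518 CPM, with a log2 fold change of −0.22, or 0.24 without virgin 1. Cdca3, a factor of mitotic entry, measured 0.348 to 1.05 CPM and 0.218 to 2.78 CPM. Exonic bases that lie opposite another gene number 592 in Ube2c (Tnnc2, a skeletal troponin gene), 1271 in Kif20a (Cdc23), 911 in Prc1 (Rccd1) and 510 in Ccna2 (Exosc9). They number 53 to 232 in Cdc20, Plk1, Nusap1 and Cdca8, and Top2a shares 122 bases with a gene on its own strand. The strand setting of the counting is not given in the sources used here, so the counts of these 9 genes are uncertain.

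Mki67, the antigen of the Ki-67 proliferation stain, was the most abundant mitotic gene after Cenpf. It measured 4.12 CPM at the lowest, 7.04 at the median and 17.4 CPM at the highest in multiparous hearts, and 3.54, 7.71 and 38.3 CPM in virgin hearts. Virgin 1 held 38.3 CPM, virgin 4 held 19.1, virgin 3 held 17.4 and multiparous 1 held 17.4 CPM, while the other 12 libraries stayed at or below 11.0 CPM. The multiparous mean was 8.30 ± 4.22 CPM and the virgin mean 12.9 ± 11.9 CPM, or 9.22 ± 6.41 CPM without virgin 1 (SD, n = 8, 8 and 7). The log2 fold change was −0.62 (95% interval −1.54 to 0.31, edgeR adjusted p = 0.785), and −0.13 (−0.90 to 0.63) without virgin 1. Top2a, the topoisomerase that untangles chromosomes, ranked the libraries alike at the top, with 23.1 CPM in virgin 1, 11.2 in virgin 4, 10.6 in virgin 3 and 8.37 CPM in multiparous 1. Its lowest values were 1.79 CPM in virgin 5 and 2.01 CPM in virgin 7. Cenpe, a kinetochore motor, ranged from 0.374 to 1.80 CPM and from 0.315 to 4.34 CPM.

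Spindle and cytokinesis genes were highest in virgin 1, virgin 3, virgin 4 and multiparous 1, and their lowest library varied by gene. Kif11, the motor that pushes spindle poles apart, ranged from 1.23 to 3.12 CPM (median 1.76) in multiparous and from 1.11 to 8.14 CPM (median 1.96) in virgin hearts (log2 fold change −0.69, SE 0.35). Tpx2, a spindle assembly factor that activates Aurora A, had a log2 fold change of −0.78 with and −0.45 without virgin 1. Nusap1, a microtubule bundling protein, had −0.64 and −0.35, and Prc1, which bundles the central spindle, −0.59 and −0.28. The kinesins Kif23 (−0.45 and −0.15) and Kif20a (−0.25 and −0.06) act with Prc1 at the central spindle. Racgap1 and Ect2 switch on the contractile ring. Racgap1 measured 9.54 CPM in virgin 1, and at most 3.54 CPM elsewhere. Its log2 fold change was −0.71, and −0.15 without virgin 1, and that of Ect2 −0.67 and −0.27. Anln, the scaffold anillin, was least particular to virgin 1, whose 5.12 CPM lay close to 4.88 CPM in virgin 4.

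**Figure D3:**
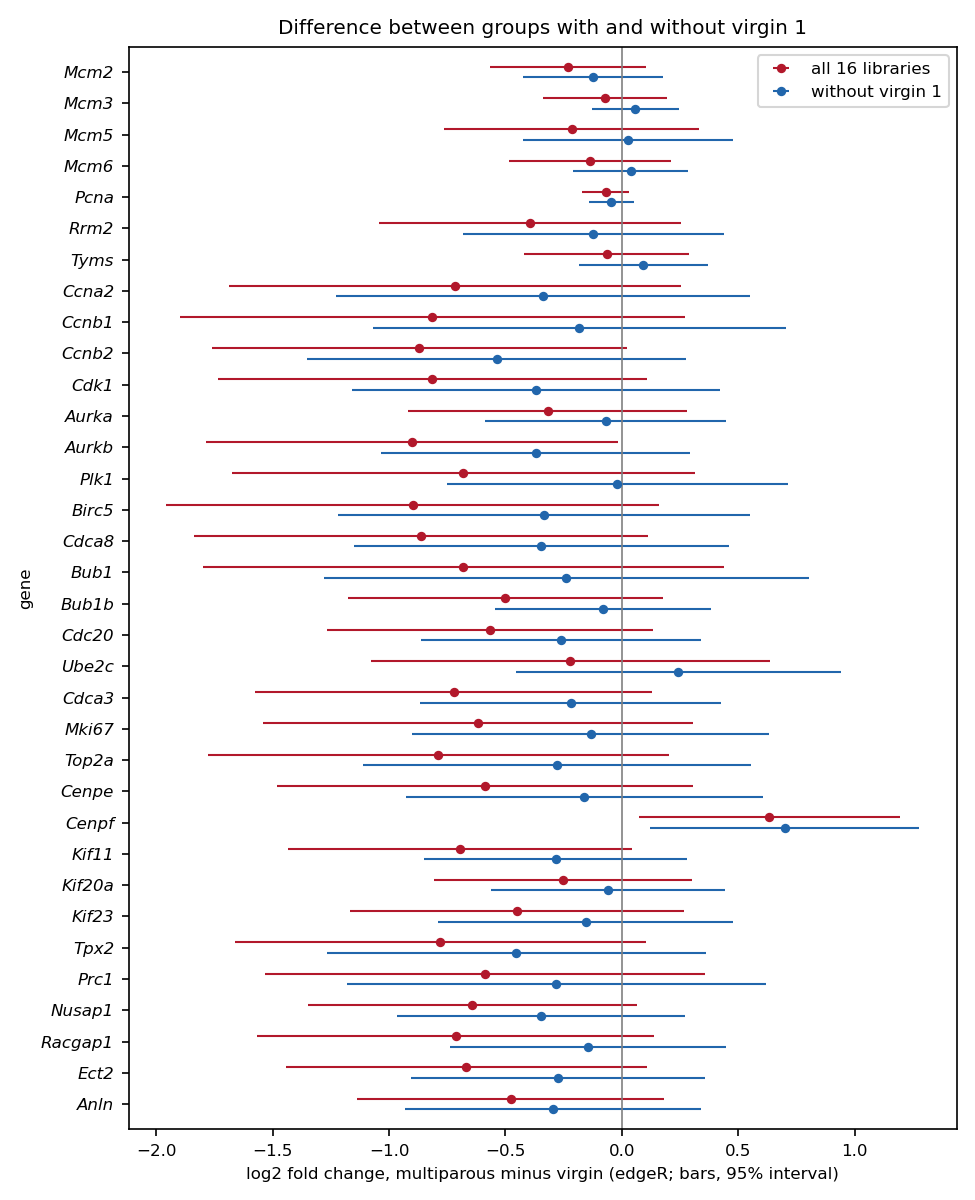
Points are edgeR log2 fold changes, multiparous minus virgin, and bars are 95% intervals, for each of 34 genes with all 16 libraries (red) and without virgin 1 (blue). Blue points lie nearer to 0 than red ones for most genes, their intervals include 0 except for Cenpf, and Cenpf lies to the right in both.

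Cenpf went its own way. The gene, on chromosome 1 from 189640606 to 189688086 on the minus strand, encodes a large protein of the outer kinetochore and, outside mitosis, of the nuclear envelope. It measured 60.2, 53.4, 38.8, 33.9, 73.4, 59.8, 51.7 and 73.0 CPM in multiparous 1 to 8. In virgin 1 to 8 it measured 47.0, 13.2, 18.9, 23.6, 40.4, 37.3, 73.4 and 32.0 CPM. The multiparous mean was 55.5 ± 14.3 CPM and the virgin mean 35.7 ± 19.0 CPM (SD, n = 8 each), or 34.1 ± 19.9 CPM without virgin 1 (n = 7). Of the 8 multiparous libraries 7 lay above the virgin median of 34.7 CPM, and virgin 7 reached the level of the highest multiparous ones. The log2 fold change was 0.63 (95% interval 0.08 to 1.193, edgeR adjusted p = 0.542), and 0.70 (0.12 to 1.28, edgeR adjusted p = 0.317) without virgin 1. With virgin 7 left out as well, an alternative chosen after the data were seen, it was 1.01 (SE 0.23, edgeR adjusted p = 0.0496). Virgin 7 held the highest virgin level of Cenpf, so leaving it out could only raise this value. That fit called 139 of 17980 genes, against 23 of 17901 without virgin 1 alone.

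The order of the hearts for Cenpf was not that of the other genes. Virgin 3 and virgin 4, with high mitotic transcripts, held 18.9 and 23.6 CPM of Cenpf. Virgin 7, with 3 of the 34 genes above their median, held 73.4 CPM. In virgin 2 to 4 Cenpf was lower than in each of the other 13 libraries. Per kilobase of exon Cenpf was more abundant than Mki67 by far, at 2.95 against 0.868 CPM per kb, although both proteins mark dividing cells.

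**Figure D4:**
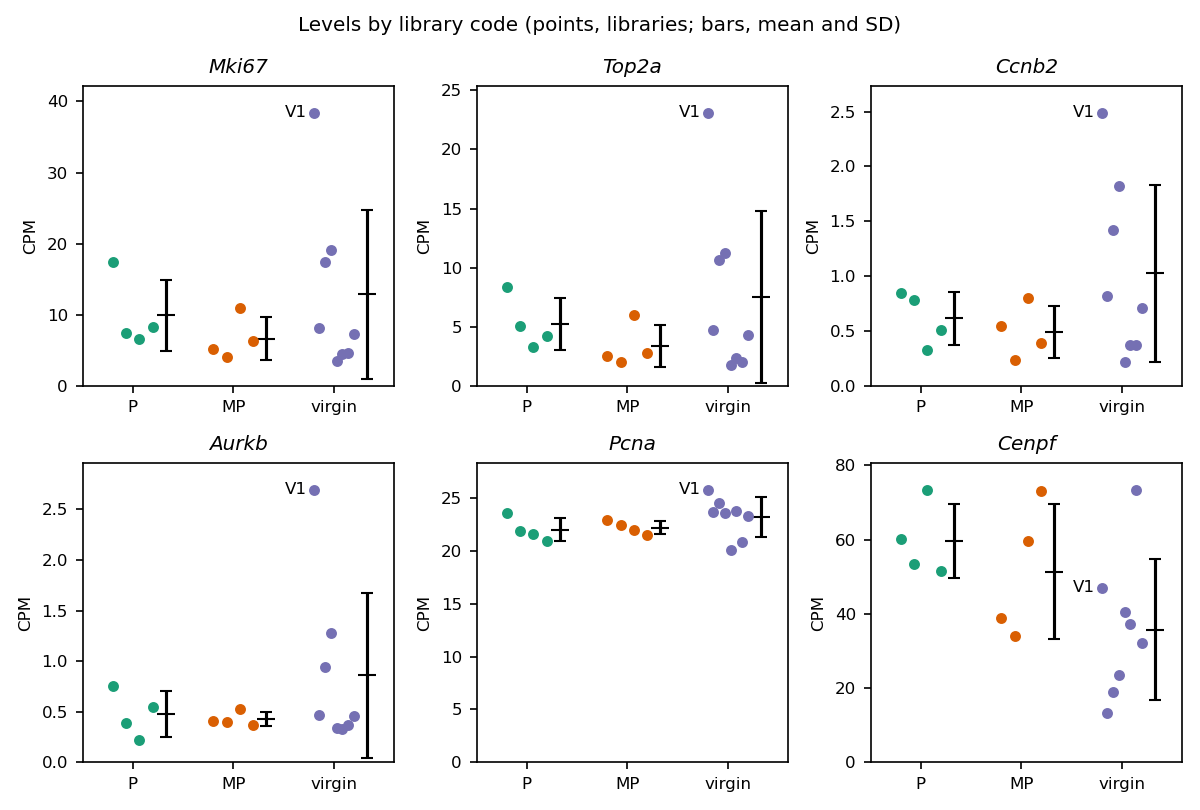
CPM of 6 genes by library code, with 4 P-coded, 4 MP-coded and 8 virgin libraries as points, and the mean with SD as bars beside them. Virgin 1 (V1) stands above all other points in Mki67, Top2a, Ccnb2, Aurkb and Pcna, and within the range in Cenpf.

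Within the multiparous group the log2 fold change, MP minus P, was negative for 31 of the 34 genes, against 49.4% of 18123 genes. In the edgeR fit of MP against P, 0 members passed, where 0.121% of all genes did (edgeR adjusted p 0.220 to 0.998). DESeq2 and limma voom called 0 too. The median log2 fold change of the members was −0.37. At an unadjusted p under 0.05 stood 5 members, all lower in MP (Mcm2, Rrm2, Cdk1, Bub1b and Prc1), and 0 higher, against 5.07% and 5.93% of all genes. Mcm2 measured a mean of 9.08 CPM over P and 6.85 CPM over MP libraries (log2 fold change −0.41, SE 0.11, edgeR adjusted p = 0.220). Multiparous 1, a P-coded library, weighed on this: without it 22 of the 34 were negative and the median was −0.12. Markers of other tissues and cells also moved with the codes. Of 12 kidney tubule markers tested, 3 passed in edgeR, higher in MP (median log2 fold change 1.58). All 10 liver markers were lower in MP (median −3.78, 0 called, 10 at an unadjusted p under 0.05), and their sum ran from 4.47 to 324.9 CPM in P and from 5.58 to 37.1 CPM in MP libraries. Fold changes were positive for 11 of 11 macrophage markers (median 0.31) and for 10 of 11 mesothelial markers (median 1.21), with 0 called in either. Their part in the levels of the 34 genes was not tested.

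Each code set against the same 8 virgin libraries gave its own values. The P-coded libraries had a median log2 fold change of −0.36 over the members, and the MP-coded ones −0.83, with 0 members past the threshold in either. Without virgin 1 the medians were −2.15e-05 and −0.43, with 17 and 30 of 34 negative. The positive log2 fold change of Cenpf was 0.73 (SE 0.33) for P and 0.53 (SE 0.35) for MP. These comparisons share their virgin libraries.

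Virgin 1 also stood apart in transcripts of B cells. In the labelled heart tissue, 14 markers of B and plasma cells summed to 273.9 CPM there, against 13.5 to 24.5 CPM in the other 7 virgin and 19.97 to 118.7 CPM in the multiparous libraries. Virgin 1 was highest for 11 of the 14, against 16.1% of all genes with a mean of at least 1 CPM. Between the groups 0 of 12 tested B cell markers passed in edgeR, and without virgin 1 3 passed, higher in multiparous hearts. Markers of macrophages and monocytes summed to 541.5 CPM in virgin 1, with 532.3 CPM in multiparous 6 next, and 5 of 11 were highest there. Markers of neutrophils and their precursors summed to 15.8 CPM, against 0.801 to 2.86 CPM in the other virgin and 1.45 to 11.52 CPM in the multiparous libraries. T cell markers summed to 19.5 CPM in virgin 1 and 34.5 CPM in multiparous 8, and to at most 7.32 CPM elsewhere. The 7 thymocyte genes summed to 5.55 CPM in virgin 1, the highest of the 16 libraries, against 2.57 to 5.15 CPM in the others. Of them Tox (3.40 CPM) and Dntt (0.125 CPM) were highest in virgin 1, while Rag1, Rag2 and Ptcra had no counts there. The part of these cells in the levels of the 34 genes was not tested.

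The other libraries with high mitotic transcripts differed in B cell markers. These summed to 18.6 CPM in virgin 3 and 15.9 CPM in virgin 4 and to 32.7 CPM in multiparous 1. In multiparous 6, with 29 of the 34 genes above their median, they summed to 65.8 CPM, the fourth highest value, beside the second highest macrophage sum. Multiparous 7, second in B cell markers at 118.7 CPM, held 91.5 CPM summed over the 33 genes other than Cenpf, against 144.8 CPM in virgin 3 and 151.6 CPM in virgin 4.

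Kidney tubule transcripts went with these libraries in part. Such transcripts had a negative log2 fold change for 16 of 17 tested markers, with a median of −2.77. At an unadjusted edgeR p under 0.05 stood 13 lower and 1 higher, against 4.09% and 4.04% of all genes. After adjustment 0 passed, where 0.0112% of all genes did. Without virgin 1, 2 passed, where 0.128% of all genes did. The 20 kidney tubule genes summed to 14.95 to 41.2 CPM in multiparous and 24.1 to 149.8 CPM in virgin libraries. Cubn alone held 15.6 CPM in multiparous 1 and 12.3 CPM in multiparous 5. Cyp2e1 held 12.7 CPM in multiparous 2 and 15.7 CPM in multiparous 7, where the liver marker Alb held 236 and 189 CPM. Kap ranged from 0.0376 to 2.18 CPM in multiparous and from 0.751 to 17.8 CPM in virgin libraries. The sum is therefore not a measure of kidney tubule alone. The sum was 142.3 CPM in virgin 1, 149.8 in virgin 3 and 90.2 in virgin 4. In virgin 6 it was 115.5 CPM with low mitotic transcripts (71.6 CPM over 33 genes), and in multiparous 1 it was 22.4 CPM with high ones (135.0 CPM). Fitted beside the log2 kidney sum, all 33 negative fold changes became positive, with a median of 0.38 over the members and 0 called, and of 0.25 without virgin 1. The kidney sum itself differed between the groups, so that in this fit group and kidney transcripts cannot be told apart.

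**Figure D5:**
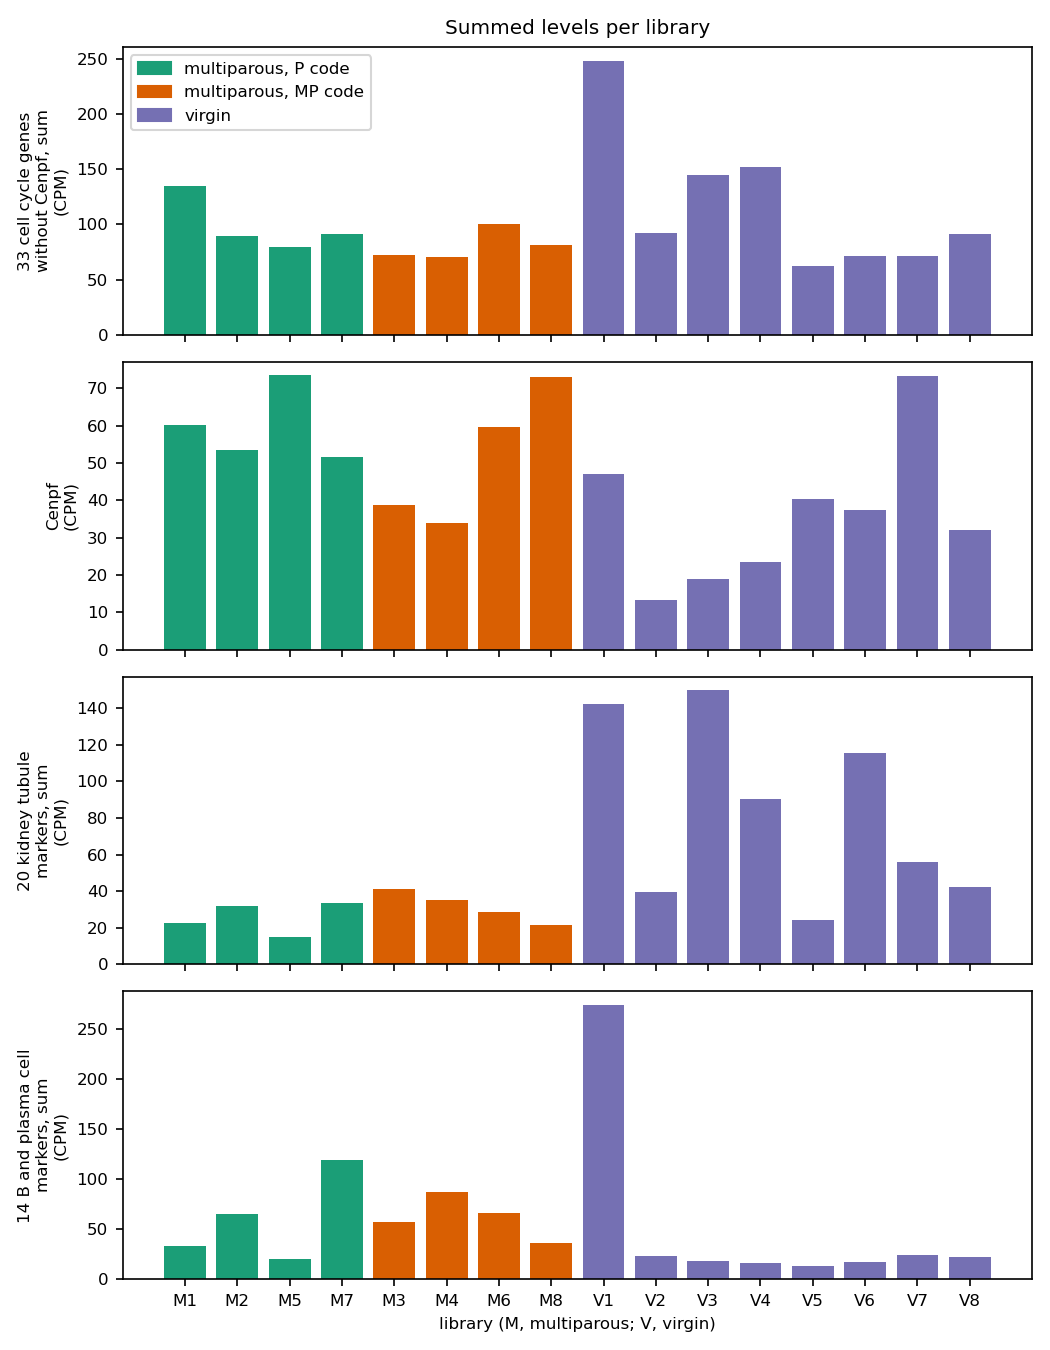
Bars give summed CPM in each of 16 libraries for 33 members without Cenpf, for Cenpf, for 20 kidney tubule markers and for 14 markers of B and plasma cells, coloured by library code, each axis starting at 0. Virgin 1 is highest in the first and the last panel, virgin 3 in the kidney panel, and Cenpf has another order.

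Other genes of the same processes, from lists chosen with earlier results of these data known, had their highest levels in the same library. Of 53 other mitosis genes tested, 50 had a negative log2 fold change and 3 a positive one, with a median of −0.50, and 0 passed. Virgin 1 was highest for 52 of the 58 in the files, against 16.1% of all genes with a mean of at least 1 CPM. The 4 with the smallest p were Spc24, a kinetochore subunit (multiparous mean 1.89 ± 0.327 CPM, virgin mean 2.34 ± 0.330 CPM, SD, n = 8 each), Pimreg, Cdca5 (sororin, which holds sister chromatids together) and Kif2c, a kinesin that takes microtubules apart. Their edgeR adjusted p ran from 0.493 to 0.677. Foxm1, a transcription factor of late cell cycle genes, measured 1.34 ± 0.693 against 2.11 ± 1.45 CPM, and Mybl2, its partner, 0.391 ± 0.219 against 0.688 ± 0.930 CPM (SD, n = 8 each). Foxm1 and Mybl2 were added for their role after their values were seen. Without virgin 1, 40 of 53 were negative and the median was −0.11.

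Of 32 other replication genes tested, 22 were negative and 10 positive (median −0.07, 0 called), and without virgin 1 15 and 17 (median 0.03). For 26 of the 34 in the files the highest level was that of virgin 1, against 16.1% of all genes with a mean of at least 1 CPM. Those with the smallest p were Uhrf1, which maintains DNA methylation (1.88 ± 0.558 against 3.24 ± 2.61 CPM), Clspn, Gins4 and Chaf1b. Gins4, of the helicase, had a small positive log2 fold change of 0.07.

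Genes that decide on entry into the cycle were more even between the groups by their median fold change. The highest level was still that of virgin 1 for 20 of the 42, against 16.1% of all genes with a mean of at least 1 CPM. Of 42 tested, 25 were negative and 17 positive, with a median of −0.03, and 0 passed, and without virgin 1 18 and 24 with a median of 0.06. E2f3, a transcription factor that activates replication genes, measured 14.1 ± 0.835 CPM in multiparous hearts and 16.8 ± 1.36 CPM in virgin ones (SD, n = 8 each). Its log2 fold change was −0.25 (SE 0.05, edgeR adjusted p = 0.0895), and −0.26 (edgeR adjusted p = 0.0531) without virgin 1. The virgin range was 15.5 to 18.7 CPM and the multiparous range 13.3 to 15.9 CPM, which overlap slightly. Virgin 1, at 15.6 CPM, was near the bottom of the virgin range. E2f4, the repressive E2F of resting cells, measured 19.98 ± 1.47 against 22.2 ± 1.72 CPM, and Ccnd1, cyclin D1, 98.6 ± 15.4 against 117.9 ± 20.8 CPM. Cdkn1b, the inhibitor p27, measured 46.8 ± 3.79 against 42.8 ± 3.18 CPM (edgeR adjusted p 0.423 to 0.542 for these 3 genes).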

How the data were processed

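Ventricular RNA of 16 mice was sequenced as a stranded, ribosomal RNA-depleted library each, per the labels. The deposited files hold raw counts per gene made by the authors with HTSeq 0.11.1 after STAR 2.7.11b alignment to GRCm38.p6, per the submitters' processing notes. Strand setting and annotation release: not given in the sources used here. Reads outside genes (26.5% to 33.1%) were left out. Group differences were tested with edgeR 4.0.16 (R 4.3.3) by its quasi-likelihood F-test with TMM factors, the default filter on low counts, group alone as a term and Benjamini-Hochberg adjustment over all genes tested at 0.05. Levels are TMM-scaled CPM, and levels per kilobase use GENCODE M21 exonic lengths (99.53% of identifiers matched). The fit was tested on simulated data. The smallest difference between libraries of a group exceeded sampling noise (chi-square per degree of freedom 9.85 over 56 pairs), so none was counted once for 2. P-values measure the spread between mice as labelled, and floors cover counting error only.

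All 34 genes are named. Each other list is represented by the 4 genes of lowest p. For virgin 1 they are those leading by its ratio to the highest other library, with predicted genes passed over. The genes and lists were chosen with earlier results of these data known. Alternatives were DESeq2 1.42.0, limma 3.58.1 voom, other scaling, no filter, a replicate block, single codes, a kidney covariate and leaving out each library. Those for the comparisons without virgin 1 and between codes were added after the data were seen. Promoters come from RefSeq. Of the genes, 8 overlap exons of a gene on the opposite strand and 1 on the same strand.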

Additional observations from a re-analysis of the deposited data

Results flagged for a closer look

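In each group of 8 libraries, the gap between the outermost library and its nearest neighbour was divided by the group's whole range, and a share above the critical value of Dixon's test marked a library far from the others. Chance alone marks about 1 in 20 groups if values are normally distributed, which was not checked. The 34 genes share their libraries, so these marks are not separate observations. The share marked over all genes was not computed, and 16.1% of all genes with a mean of at least 1 CPM were highest in virgin 1. Of the 68 gene groups 22 were marked. Virgin 1 was the library far above the other virgin ones in 15 of them, with a share of Mcm3 0.6189, Mcm6 0.6005, Tyms 0.5509, Ccnb1 0.5846, Cdk1 0.5522, Aurkb 0.5978, Plk1 0.6982, Birc5 0.6701, Cdca8 0.5325, Bub1b 0.6792, Cdca3 0.6186, Mki67 0.5526, Top2a 0.5571, Kif11 0.5853 and Racgap1 0.6943. The sum over the members gave 0.6243 for virgin 1. Multiparous 1 was far above the other multiparous libraries for 6 genes, with Cdk1 0.7128, Cdca3 0.6527, Kif11 0.6067, Kif20a 0.5995, Tpx2 0.7001 and Prc1 0.5872. Multiparous 3 was far below the others for Mcm6, at 0.5930. Cenpf was marked in neither group.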

How the results depend on the processing

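Tests between the groups called 0 of the 34 genes in all alternatives with 16 libraries. The number of genes called over the whole table was 2 with edgeR, 130 with DESeq2, 56 without the filter on low counts, 0 with library totals and no factors, 97 for P-coded and 0 for MP-coded libraries against virgin ones. Without virgin 1 it was 23, and 306, 100, 0, 87 and 5 under the same alternatives, with 17 members negative for the P-coded ones. For MP against P it was 22, and 295 with DESeq2, 13 with limma voom, 7 without factors and 389 without the filter. The cause of these shifts was not tested. The labels do not say whether replicate numbers pair the mice, and the main fit took no pairs. Deviations of same-numbered libraries correlated at over 0.1 for 1 of 8 numbers. In all, 1 multiparous and 3 virgin libraries correlated best with their own number. Such correlations cannot settle whether the mice were paired. With a replicate block 33 genes were called (57 without virgin 1), and 0 members. The members' median was −0.24 with limma voom and −0.36 with the replicate block, and −0.033 and −0.23 without virgin 1.

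Leaving out 1 library at a time gave 0 to 55 genes called, 28 to 33 members negative and a median of −0.76 to −0.17 over the members. Without virgin 1, leaving out another library gave 1 to 139 genes called, 0 to 1 members called (Cenpf, without virgin 7), 13 to 30 members negative and a median of −0.39 to 0.046, with the highest median without virgin 4. For MP against P the same gave 3 to 197 genes called, 22 to 33 members negative and a median of −0.58 to −0.12. Over the 16 fits that leave 1 library out of the comparison of all, the log2 fold change ranged from −0.11 to 0.059 for Mcm3, from −0.32 to 0.028 for Mcm5, from −0.19 to 0.038 for Mcm6, from −0.13 to 0.093 for Tyms and from −0.44 to 0.24 for Ube2c, positive in each case only without virgin 1. limma voom turned Ube2c to 0.044.

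With the log2 sum of kidney tubule transcripts as a covariate, 0 members were negative and 0 genes were called, also without virgin 1, and the median log2 fold change was 0.38 (0.25 without virgin 1). The 33 turned values follow, with those without virgin 1 in parentheses. In replication and nucleotide supply they were Mcm2 0.11 (0.077), Mcm3 0.14 (0.092), Mcm5 0.39 (0.30), Mcm6 0.14 (0.063), Pcna 0.038 (0.033), Rrm2 0.32 (0.23), Tyms 0.30 (0.24). In cyclins, Cdk1, kinases and checkpoint genes they were Ccna2 0.68 (0.56), Ccnb1 0.84 (0.63), Ccnb2 0.33 (0.23), Cdk1 0.28 (0.11), Aurka 0.27 (0.19), Aurkb 0.41 (0.25), Plk1 0.81 (0.60), Birc5 0.33 (0.12), Cdca8 0.48 (0.28), Bub1 0.71 (0.58), Bub1b 0.21 (0.069). In protein destruction, chromosome and the first spindle genes they were Cdc20 0.23 (0.15), Ube2c 0.86 (0.70), Cdca3 0.40 (0.20), Mki67 0.67 (0.50), Top2a 0.63 (0.47), Cenpe 0.60 (0.45), Kif11 0.38 (0.25), Kif20a 0.42 (0.36). In the remaining genes they were Kif23 0.41 (0.32), Tpx2 0.17 (0.070), Prc1 0.61 (0.51), Nusap1 0.34 (0.24), Racgap1 0.39 (0.20), Ect2 0.54 (0.41), Anln 0.11 (0.064). The covariate differs between the groups, so these values and the main ones answer different questions. It also holds Cubn, which was present in every library, and is not a measure of kidney tubule alone.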

Other observations

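Genes of lymphocytes led the transcripts that set virgin 1 apart. Of 13857 genes with a mean of at least 1 CPM, 2227 (16.1%) were highest in virgin 1, against 2.86% to 7.69% in each of the other 15 libraries, and 87 exceeded every other library more than 2 times. In the order by that ratio, predicted genes without a proper symbol were passed over. The first were the immunoglobulin segments Ighv1-80 (94.2 CPM in virgin 1, at most 1.00 CPM elsewhere) and Igkv4-55 (45.1 against 0.508 CPM). The constant region gene Ighg3 came next (353 against 38.6 CPM). Cd22, an inhibitory receptor of B cells, followed at 24.6 against 3.16 CPM, and Pou2af1, a B cell coactivator, held 27.5 against 4.60 CPM. Ciita, the master regulator of MHC class II genes, held 23.2 against 5.83 CPM, and Itgax, an integrin of dendritic cells and other myeloid cells, 8.75 against 2.37 CPM. The first 20 genes of this order held 0 of the cell cycle genes. Counted whatever their mean, 11 of the cell cycle genes exceeded every other library more than 2 times in virgin 1. Of these, Ccnb1, Aurkb, Plk1, Birc5, Cdca8 and Cdca3 had a mean under 1 CPM and so lay outside the 87 and this order. Bub1b, Mki67, Top2a, Kif11 and Racgap1 had a mean of at least 1 CPM.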
